A study of Glycine max with 12 samples.

Results

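The heat response of *GmMYB21a-OE2* flower buds was measured by RNA-seq in 6 of the 12 libraries of the series, 3 at high temperature (HT) and 3 at normal temperature (NT). The libraries were chosen by their titles. *GmMYB21a-OE2* is a soybean line that overexpresses *GmMYB21a* and was made in Tianlong No. 1 (TL1), a cultivar used as a restorer line, which brings back male fertility in hybrids of cytoplasmic male sterile plants. Both groups carry the transgene, and the stated difference between them is the temperature of the growth chamber. Their libraries also differed over chromosome 2, as given below. Day temperatures were 40 °C for HT and 28 °C for NT, and night temperatures were 34 °C and 22 °C. The study's general HT treatment began at the opening of flowers and lasted 5 d, and no other length is stated for the buds that were sequenced. The study's methods on RNA extraction and PCR name flower buds of mixed sizes, picked along the height of the plants. Its RNA-seq methods name buds picked likewise from plants under HT stress, with 3 biological replicates. How the NT buds were taken for sequencing is not described there. The promoter of the transgene is not given in the sources used here, and the line is 1 of the transgenic lines of the study, so what is particular to this line and what comes from the transgene cannot be told apart. The treatment entry of all 12 libraries reads high temperature, although 6 are titled NT, and the titles were followed. The remaining 6 libraries are TL1 at the same temperatures, and they share no library with the *GmMYB21a-OE2* comparison.

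Pollen is among the most heat-sensitive products of a flower in many crops. Its wall is built from material made by the tapetum, the innermost layer of the anther, and the grain later grows a pollen tube by loosening and depositing pectin at its tip. MYB21 and MYB24 of *Arabidopsis*, R2R3-MYB transcription factors related to GmMYB21a, are needed for stamen filaments to elongate and for pollen to mature. Plant cells at high temperature commonly induce heat shock transcription factors and chaperones, and many transcription factors of the ERF, WRKY and C2H2 zinc finger families respond to heat, wounding and dehydration within a short time.

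The gene-specific ends of the primers that made the overexpression construct are shown because they mark what the transgene holds. The forward primer starts at the start codon (capitals), and the reverse primer starts at the reverse complement of the stop codon (capitals).
forward primer of the *GmMYB21a* construct: ATGgacaaaaaaccatgcgact
reverse primer of the *GmMYB21a* construct: TTAatctccattgagtaattgcatagac
Primers at both ends take in the whole coding sequence, so reads of the transgene cannot be told apart from those of the resident gene in the counts. *GmMYB21a* was taken to be Glyma.19G006500, which is described in the annotation table as a Myb-related protein that bears the older name of the gene. The identifier was not matched to the study's protein by sequence.

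*GmMYB21a* fell at HT in the line that overexpresses it. Its level was 41.5, 38.4 and 38.6 CPM at NT and 11.4, 11.5 and 10.3 CPM at HT, where CPM is counts scaled by the normalized library size. All 3 HT libraries lay below all 3 NT libraries. The means were 39.5 ± 1.74 CPM (SD, n = 3) at NT and 11.1 ± 0.690 CPM (SD, n = 3) at HT. HT over NT it was -1.83 on the log2 scale, with a standard error (SE) of 0.09. The p-value adjusted over all genes by the Benjamini-Hochberg method was 6.17e-10 in the quasi-likelihood test of edgeR. Without replicate 3 of the HT group the log2 fold change was -1.79. In TL1 the level was 6.39, 5.32 and 5.44 CPM at NT and 1.12, 0.810 and 0.894 CPM at HT, and the log2 fold change was -2.6 (adjusted p = 9.9e-13 from edgeR). The fall was smaller in *GmMYB21a-OE2* by 0.77 on the log2 scale (SE 0.17, edgeR adjusted p = 0.0059), as tested by the line-by-temperature interaction in the fit to the 12 libraries. The level of *GmMYB21a-OE2* at HT was above that of TL1 at either temperature in every library.

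**Figure D1:**
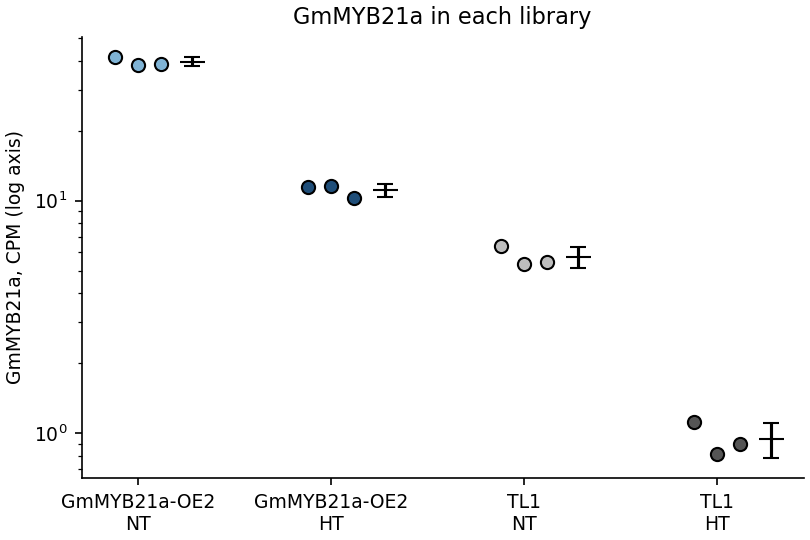
Level of *GmMYB21a* in CPM (vertical axis, log scale) in each of the 12 libraries; points are libraries, and the bar beside them is the mean with the SD over 3 libraries. The *GmMYB21a-OE2* libraries fell from between 38.4 and 41.5 CPM at NT to between 10.3 and 11.5 CPM at HT, and the TL1 libraries lay at 6.39 CPM or less.

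The 6 libraries held between 35625846 and 39654590 counts, and the main difference among them was that between the HT and NT groups. The first principal component of log2(CPM + 1), over 36214 genes with a mean of at least 1 CPM, took 90.5% of the variance and parted the HT from the NT libraries. The next component took 4.41% and set replicate 3 of the HT group apart, at -29.5 against 19.3 and 11 for the other HT libraries. Log2 levels of HT replicates 1 and 2 differed with an SD of 0.182 over genes, whereas replicate 3 differed from them with an SD of 0.272 and 0.245. In replicate 3, 28 of the 36214 genes lay at least 1 log2 unit below both other HT libraries, against 4 to 8 genes in each of the other 5 libraries. Pairs of replicates differed by more than counting noise, with a chi-square per degree of freedom of at least 3.36.

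**Figure D2:**
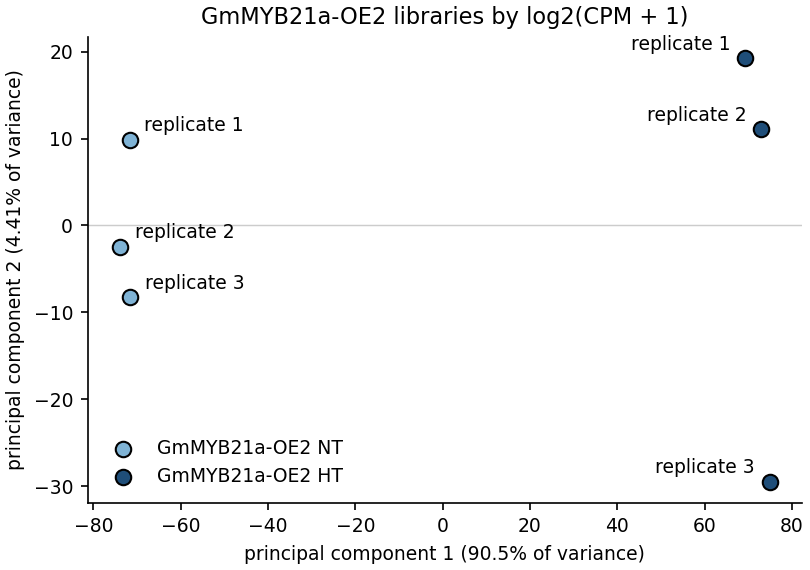
Principal components 1 and 2 of log2(CPM + 1) for the 6 *GmMYB21a-OE2* libraries, with each point labelled by its replicate number. The HT libraries lie on the right and the NT libraries on the left of component 1, and HT replicate 3 lies at -29.5 on component 2, below the others.

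One chromosome stood apart from the rest, and this was seen after the data had been examined. Against the mean of TL1 at NT, the median log2(CPM + 0.5) of 2052 genes with a mean of at least 1 CPM, placed on chromosome 2 by their identifiers, was -0.163, -0.147 and -0.156 in the NT libraries of *GmMYB21a-OE2*. In its HT libraries the same median was -0.0079, -0.022 and 0.0037, and in the HT libraries of TL1 it lay between -0.028 and 0.0011. The NT libraries of *GmMYB21a-OE2* were thus lower over this chromosome than every other library, and the HT libraries were not. The HT minus NT difference of the chromosome 2 median was 0.147 in *GmMYB21a-OE2*, against -0.053 to 0.027 for the other 19 chromosomes. An exact two-sided permutation test over 3 against 3 libraries gave p = 0.10, the smallest value this design allows. In TL1 the difference for chromosome 2 was -0.013, within the range of the other chromosomes (-0.022 to 0.045). Heat responses of chromosome 2 genes may therefore hold an upward offset of about 0.147 log2 units, the value of their median. Whether the offset is even along the chromosome or carried by part of its genes was not tested. How the buds of the NT group came to differ over this chromosome was not tested.

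**Figure D3:**
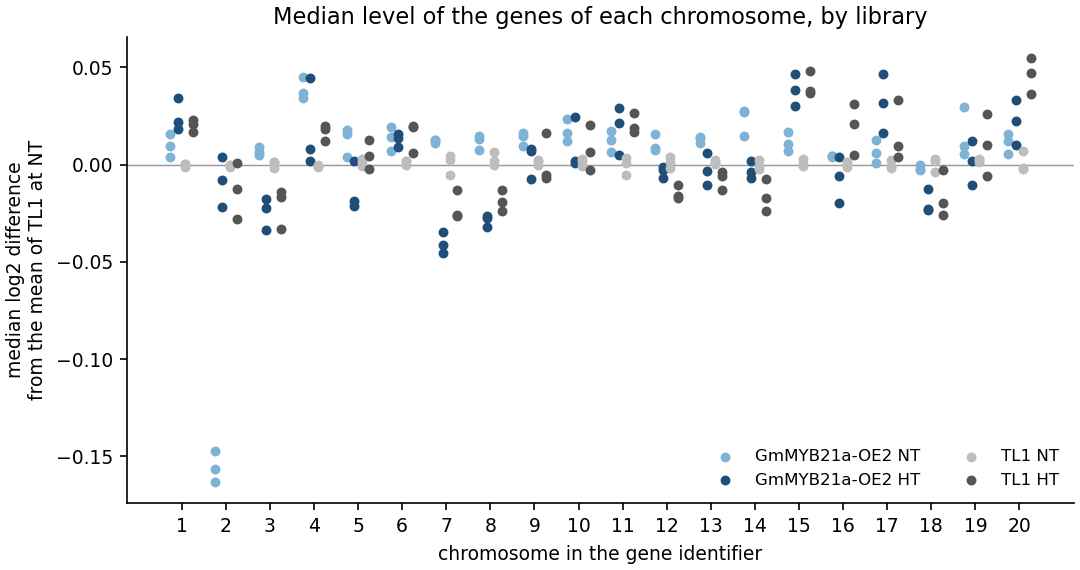
Median log2 difference of the genes of each chromosome from the mean of the 3 TL1 libraries at NT (vertical axis), by the chromosome number in the gene identifier (horizontal axis); each point is 1 library, coloured by group. On chromosome 2 the 3 NT libraries of *GmMYB21a-OE2* lie between -0.163 and -0.147, and no other point of the plot lies below -0.05.

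Of 41717 genes that passed the filter on low counts, 10376 (24.9%) were called differentially expressed genes (DEGs) between HT and NT. The call asked for an edgeR adjusted p-value under 0.05 together with a change of 1 log2 unit or more in either direction. Of these, 4426 were higher (10.6% of the genes tested) and 5950 were lower (14.3%) at HT, so that 57.3% of the DEGs fell. With the adjusted p-value alone, 27976 genes (67.1%) passed. The HT and NT libraries did not overlap in 10273 of the 10376 DEGs. Apart from *GmMYB21a*, the genes named by rule were picked among those 10273. Separate groups were thus a condition of their choice and are no added support. Large changes were more often falls. Among the DEGs, 691 rose and 1567 fell by at least 2 log2 units, and 47 rose and 159 fell by at least 4. In 43 of the genes that rose, no NT library had more than 3 counts, and in 93 of those that fell, no HT library had more than 3 counts. Without HT replicate 3, 10592 genes were called, and 9581 of the 10376 (92.3%) were among them, each with the same sign. Of the 795 that were lost, 589 still had an adjusted p-value below 0.05 in edgeR. The median change of their log2 fold changes, over the 10376 genes, was 0.081. On chromosome 2, 14.3% of the genes tested were higher and 12.4% lower, whereas on each of the other 19 chromosomes between 9.11% and 10.9% were higher and more genes were lower than higher. Without the genes of chromosome 2, 4153 genes were higher and 5608 lower.

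Among genes that exceeded 3 counts in both groups, the largest changes belonged to genes that the readable annotation does not describe. Glyma.02G205600, on chromosome 2, had 0.391, 0.316 and 0.146 CPM at NT and 14.6, 12.5 and 16.6 CPM at HT, a log2 fold change of 5.66 (SE 0.23, edgeR adjusted p = 1.94e-10). Glyma.16G030000 had 0.168, 0.172 and 0.233 CPM at NT and 8.23, 9.75 and 10.9 CPM at HT, a log2 fold change of 5.63. In both, every HT library was far above every NT library, and both rose in TL1 by a like amount, with log2 fold changes of 5.76 and 5.32. Glyma.04G131100 had 5.17, 3.99 and 4.54 CPM at NT and 0, 0.119 and 0 CPM at HT, a fitted log2 fold change of -6.65 that was -10.38 without HT replicate 2, the only HT library with reads of it. Glyma.06G239600 had 22.9, 28.4 and 28.3 CPM at NT and 0.185, 0 and 0.691 CPM at HT, a log2 fold change of -6.51, which was -8.18 without HT replicate 3. Both were almost without reads at HT.

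Names and functions could be given to 474 of the genes, those with a Swiss-Prot description among the 578 readable rows of the study's annotation table. All rows of that table are genes that the study found to differ between the lines at HT. They were thus selected with the 3 HT libraries used here, and neither their heat response in *GmMYB21a-OE2* nor its difference from TL1 is independent of that choice. Of the 578, 224 rose at HT in *GmMYB21a-OE2*, 77 fell, 269 were not called and 8 were not tested. In TL1, 52 of them rose and 249 fell. Of the 578, 146 were lower in TL1 and not called in *GmMYB21a-OE2*, and 45 were lower in TL1 and higher in *GmMYB21a-OE2*. The line-by-temperature interaction passed at an edgeR adjusted p-value under 0.05 in 463 of them, against 12.4% of all genes tested. From the descriptions, 15 lists of 5 to 22 genes were made, and their heat responses are given beside the median of all genes tested, which was 0.01 on the log2 scale. Since the lists were drawn from the 578 rows, their counts are also to be read beside the 224 higher and 77 lower among those. The share of higher genes in the *WRKY* (6 of 13), calcium (6 of 17) and defence (7 of 20) lists was near that of the 578 rows. No list had more than 3 members on chromosome 2. In TL1, 71.2% of all genes tested passed the adjusted p-value alone, and 8.55% were called higher and 14.7% lower.

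Genes of the pollen tube fell, with the lowest median of the 15 lists. Of 10 listed genes, 9 were lower and 1 was higher at HT, with a median log2 fold change of -2.83. The summed level of the 10 genes was 81.2 to 89.8 CPM in the NT libraries and 9.97 to 12.7 CPM in the HT libraries. Every member had reads in every NT library, the lowest count being 17, so the transcripts of pollen were present in the NT buds. In bulk buds, fewer cells of a type and less RNA per cell cannot be told apart. *STP10* (Sugar transport protein 10, Glyma.09G284200), a monosaccharide transporter of growing pollen tubes in *Arabidopsis*, had 11.2, 12.3 and 12.3 CPM at NT and 0.633, 0.525 and 0.333 CPM at HT. The groups were far apart, with a log2 fold change of -4.58 (SE 0.19, edgeR adjusted p = 2.48e-10). The Olee1-like gene Glyma.15G082300, a relative of an olive pollen allergen, had 21.8, 24.4 and 23.7 CPM at NT and 2.19, 2.34 and 2.23 CPM at HT and a log2 fold change of -3.37. The *PPME1* genes Glyma.01G066000 and Glyma.01G066100 encode pectin methylesterases that set the stiffness of the pollen tube wall. They had log2 fold changes of -3.13 and -3.02, and their identifiers neighbour each other, so close copies may share reads. The plasma membrane proton pump annotated as ATPase 8 (Glyma.15G207900) fell from 18, 21.8 and 21.9 CPM to 2.43, 3.01 and 3.79 CPM, a log2 fold change of -2.74. A pollen-specific leucine-rich repeat extensin-like gene (Glyma.05G121700), *COBRA-like 10* (Glyma.12G213400) and both *Syntaxin-124* genes (Glyma.13G245800, Glyma.15G068000) fell by between 2.12 and 2.92 on the log2 scale.

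The exception was *ANXUR2* (Glyma.18G271500), a receptor-like kinase that keeps the pollen tube intact in *Arabidopsis*. It had 0.922, 0.717 and 0.495 CPM at NT and 1.35, 1.72 and 1.87 CPM at HT, and each HT library was above each NT library. The log2 fold change was 1.2 (SE 0.29, edgeR adjusted p = 0.0024), and it fell just under 1, and so lost the call, without NT replicate 3. In TL1 the same gene fell, with a log2 fold change of -1.48, and the difference between the lines had an edgeR adjusted p of 1.35e-04. Of the other 9 genes, 7 fell further in *GmMYB21a-OE2* than in TL1, with an edgeR adjusted p-value of the interaction under 0.05. Counting either sign, the interaction passed in a like share of all annotated rows, 463 of 578. The genes of this list, too, had been chosen for a difference between the lines at HT, so these tests are not independent of that choice.

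The pectinesterases, polygalacturonases and pectate lyase of the cell wall list fell, and 3 of its 5 xyloglucan endotransglucosylase/hydrolases rose. The list of 22 cell wall genes, which holds both *PPME1* genes, had 12 members lower, 4 higher and 6 not called, with a median log2 fold change of -2.22. Probable pectinesterase/pectinesterase inhibitor 21 (Glyma.10G009000) had 13.5, 12.4 and 12.6 CPM at NT and 0.475, 0.501 and 0.999 CPM at HT. No HT library reached 1 CPM, and the log2 fold change was -4.28 (SE 0.21, edgeR adjusted p = 8.63e-10). Pectate lyase (Glyma.18G255900), which cleaves pectin, went from 18.3, 18.3 and 18.7 CPM to 1.19, 1.26 and 2.41 CPM, a log2 fold change of -3.51. Polygalacturonases, which also break pectin, were lower in all 4 listed genes, with log2 fold changes between -2.51 and -3.24. Of these, Glyma.04G157500, Glyma.04G157600 and Glyma.04G157700 have neighbouring identifiers and may share reads. *Expansin-like B1* (Glyma.05G065700), of a family related to wall-loosening proteins, had 5.37, 5.14 and 6.99 CPM at NT and 0.211, 0.262 and 0.102 CPM at HT, a log2 fold change of -4.89. In TL1 this gene had 1.46, 1.89 and 1.19 CPM at NT and 0.840, 1.42 and 1.13 CPM at HT and was not called (log2 fold change -0.41). A further *Expansin-like B1* gene, Glyma.17G147500, fell by 2.55 on the log2 scale in *GmMYB21a-OE2*, against 0.15 in TL1, where it was not called. Xyloglucan endotransglucosylase/hydrolases cut and rejoin xyloglucan chains, and all 5 listed genes are annotated as protein 23. Of these, Glyma.13G095200 and Glyma.17G065100 were not called, at 0.56 and 0.43 on the log2 scale. Glyma.13G095100 rose from 0.279, 0.344 and 0.175 CPM to 1.48, 1.05 and 2.1 CPM, a log2 fold change of 2.52. *Expansin-like A2* (Glyma.11G096700) rose by 1.26 on the same scale. The summed level of the pollen tube list fell in the same libraries, and its part in the fall of the pectin enzymes was not tested.

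Most listed genes of the tapetum and of the pollen wall changed less than in TL1. Of 18 listed genes, 6 were lower, none was higher and 12 were not called, with a median log2 fold change of -0.34. An adjusted p-value below 0.05 without the fold was reached by 3 of the 12. Their summed level was 193 to 253 CPM at NT and 144 to 192 CPM at HT. All members had reads in every library, with at least 44 counts at NT and at least 24 at HT. In TL1 all 18 were called lower, with log2 fold changes from -3.99 to -1.04. The difference between the lines passed in 16 of the 18, each time with a positive value. The genes of the list had been chosen for a difference between the lines at HT. Counting either sign, 463 of all 578 annotated rows passed, so the count is near their share and is not read as particular to this list. *ABC transporter G family member 31* (Glyma.18G063400), which in *Arabidopsis* helps to coat pollen with lipids, fell most. It had 4.11, 3.64 and 4.54 CPM at NT and 0.633, 0.739 and 0.717 CPM at HT, a log2 fold change of -2.55 (SE 0.21, edgeR adjusted p = 1.43e-07), and no difference from TL1 was called (adjusted p = 0.17). *Fatty acyl-CoA reductase 2* (Glyma.02G169100), which makes fatty alcohols for sporopollenin, the polymer of the outer pollen wall, went from 9.45, 13.8 and 9.52 CPM to 3.3, 2.48 and 3.56 CPM. Its log2 fold change was -1.81. Both *Aldehyde oxidase GLOX* genes (Glyma.03G244200, Glyma.06G175600), *Peroxidase 40* (Glyma.07G237400) and the tapetal dehydrogenase *ATA1* (Glyma.18G278500) fell by between 1.09 and 1.88 on the log2 scale.

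Enzymes that make precursors of sporopollenin were among those not called in *GmMYB21a-OE2*. *Type III polyketide synthase A* (Glyma.01G073600) had 13.3, 25.8 and 24.6 CPM at NT and 16.7, 12.8 and 20.5 CPM at HT. The groups overlapped, and the log2 fold change was -0.35 (SE 0.21, edgeR adjusted p = 0.15) against -2.8 in TL1. *Type III polyketide synthase B* (Glyma.11G097900) had 3.38, 8.12 and 6.81 CPM at NT and 7.57, 6.18 and 7.94 CPM at HT, again with overlapping groups, and a log2 fold change of 0.25 against -2.28 in TL1. NT replicate 1 was the lowest NT library for both genes. The A6-type glucan endo-1,3-beta-glucosidase (Glyma.13G173200), an anther enzyme thought to free the microspores from callose, had 3.97, 4.36 and 5.59 CPM at NT and 5.01, 3.79 and 7.73 CPM at HT. Its log2 fold change was 0.25, and it was -2.9 in TL1. The *bHLH10* gene (Glyma.08G089100), a relative of transcription factors that act in the tapetum, had a log2 fold change of -0.08.

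Chalcone synthase genes encode the enzyme of the first committed step of flavonoid synthesis, and the 5 that were listed stayed within the fold threshold in *GmMYB21a-OE2*. Among 10 listed flavonoid genes, 1 was higher, none was lower and 9 were not called, although 6 of those had an adjusted p-value below 0.05. The 5 chalcone synthases of the list had log2 fold changes from -0.94 to -0.64 in *GmMYB21a-OE2* and from -2.61 to -2.55 in TL1. *Chalcone synthase 7* (Glyma.01G228700) had 24.7, 26 and 28 CPM at NT and 14.8, 12.7 and 13.6 CPM at HT, and the groups did not overlap. Its log2 fold change was -0.94 (SE 0.09, edgeR adjusted p = 7.38e-07), and that of TL1 was -2.61. Members of this family are close copies, in part with neighbouring identifiers on chromosome 8, and their reads may be shared. *Isoflavone 2'-hydroxylase* (Glyma.09G048700), a step towards isoflavonoid defence compounds, was the member that rose. It had 0.531, 0.574 and 0.524 CPM at NT and 2.16, 2.93 and 2.41 CPM at HT, a log2 fold change of 2.2, and -0.45 in TL1. Without HT replicate 3, *Isoflavone reductase homolog TP7* (Glyma.01G172700) was also called higher and *Chalcone synthase 5* (Glyma.08G110701) lower.

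A further 6 flavonoid genes are labelled by the study as *PAL*, *CHS* or *CHI* and were added after their values had been seen. The *CHS* gene Glyma.19G105100 had 367, 424 and 461 CPM at NT and 93.1, 93.4 and 113 CPM at HT. This was a clear fall, with a log2 fold change of -2.06 (SE 0.10, edgeR adjusted p = 9.92e-10) against -1.76 in TL1, and no difference between the lines was called (adjusted p = 0.11). The *CHS* gene Glyma.11G011500 went from 21.2, 23.1 and 21.3 CPM to 12.8, 13.6 and 14.4 CPM. It was not called, at a log2 fold change of -0.68, whereas that of TL1 was -2.4 and the interaction had an adjusted p of 2.63e-08 in edgeR. The *CHS* gene Glyma.05G153200 fell by 1.97 on the log2 scale. Chalcone isomerase, labelled *CHI*, closes the ring of the chalcone. The *CHI* gene Glyma.20G241700 had 40.2, 40.8 and 37.9 CPM at NT and 13.5, 12.8 and 14.4 CPM at HT, and Glyma.20G241500 had 47.1, 49.1 and 48.7 CPM at NT and 10.8, 11.7 and 6.4 CPM at HT. Both fell, with log2 fold changes of -1.55 and -2.32, and neither differed in its fall from TL1 at the threshold (adjusted p = 0.074 and 0.72 in edgeR). HT replicate 3 was the lowest library for the latter. *PAL* (Glyma.03G181600), at the entry of phenylpropanoid synthesis, had a log2 fold change of -0.98, just inside the fold threshold, against -1.89 in TL1. Without HT replicate 3 it was -1.09 and was called lower.

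Most listed genes of the ethylene response rose. In the list of 22, which holds ERF transcription factors and the ACC synthases that make the ethylene precursor, 15 were higher, none was lower and 7 were not called. The median log2 fold change was 1.49, and the summed level went from between 327 and 368 CPM at NT to between 971 and 1049 CPM at HT. All 3 *ERF017* genes rose. Glyma.17G047300 had 0.894, 0.631 and 1.22 CPM at NT and 7.76, 8.3 and 10.3 CPM at HT, and no library of either group came near the other group. Its log2 fold change was 3.26 (SE 0.21, edgeR adjusted p = 1.38e-08). In TL1 it fell, with a log2 fold change of -2.14, from 1.04 ± 0.142 CPM to 0.238 ± 0.145 CPM (SD, n = 3 each). Glyma.09G072000 and Glyma.13G112400 rose by 2.47 and 2.87 on the log2 scale in *GmMYB21a-OE2*. *ERF061* (Glyma.01G225000) had 1.84, 1.18 and 1.46 CPM at NT and 11.7, 12.1 and 14.7 CPM at HT, a log2 fold change of 3.1, and also rose in TL1 (1.23). *ERF053* (Glyma.13G298600) and *ERF060* (Glyma.08G137600) rose by 2.9 and 2.79. *RAP2-4* (Glyma.14G171500) had 69.4, 75.2 and 81.2 CPM at NT and 262, 265 and 228 CPM at HT. Its groups were apart, and the log2 fold change was 1.75. The 4 genes annotated as ERF 4, a family with a repressor motif in *Arabidopsis*, had log2 fold changes from 0.91 to 2.13, and 3 of them passed the threshold. One ACC synthase gene (Glyma.05G211700) rose from 6.26, 5.48 and 6.64 CPM to 18.7, 17.9 and 18.6 CPM, whereas Glyma.08G018000 and Glyma.07G065700 were not called, at 0.23 and -0.46. *ERF036* (Glyma.15G018400) was not called without HT replicate 3.

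Dehydration-responsive genes of the *DREB1D* type, which bind a cold and drought element, were near the limit of detection at NT. Glyma.09G147200 had 0.224, 0.143 and 0.0873 CPM at NT and 1.74, 2.46 and 1.72 CPM at HT, a log2 fold change of 3.67 (SE 0.37, edgeR adjusted p = 1.21e-06). All HT libraries were above all NT libraries. In TL1 its level stayed at 0.270 CPM or less in every library, and it was not tested there. The other gene, Glyma.16G199000, had 0, 0.143 and 0 CPM at NT and 0.792, 1.26 and 1.02 CPM at HT, and its fitted log2 fold change was 4.34. That value was 8.29 without NT replicate 2, the only NT library with reads of it.

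Genes that make abscisic acid and genes that break it down were both among those that rose. Of 9 listed genes, 6 were higher, none was lower and 3 were not called, with a median log2 fold change of 1.46. *NCED1*, the rate-limiting enzyme of abscisic acid synthesis, was represented by 2 genes. Glyma.15G250100 had 6.43, 7.6 and 5.62 CPM at NT and 41.5, 37.9 and 47.2 CPM at HT, a log2 fold change of 2.69 (SE 0.12, edgeR adjusted p = 3.97e-10). Glyma.08G176300 had 11.4, 13.1 and 14.1 CPM at NT and 62.1, 60.1 and 89.6 CPM at HT, a log2 fold change of 2.46. Both also rose in TL1, by 1.31 and 1.35, and the rise in *GmMYB21a-OE2* was the larger one in both (adjusted p = 2.78e-06 and 3.38e-04 for the interaction in edgeR). The 2 abscisic acid 8'-hydroxylase genes, which inactivate the hormone, rose by 1.46 (Glyma.01G153300) and 1.97 (Glyma.09G218600) on the log2 scale. *Protein phosphatase 2C 25* genes, of a family that holds negative regulators of abscisic acid signalling, rose by 1.45 (Glyma.02G228200, on chromosome 2) and 1.75 (Glyma.14G195200).

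Among the listed WRKY and C2H2 zinc finger genes, some rose and none was called lower. Of 13 *WRKY* genes, 6 were higher, none was lower and 7 were not called, with a median log2 fold change of 0.93. The 3 *WRKY53* genes, members of a family that regulates defence and ageing of leaves, were all among those that rose. Glyma.05G215900 had 9.08, 8.01 and 6.67 CPM at NT and 35.8, 34.3 and 43.9 CPM at HT, a log2 fold change of 2.26 (SE 0.12, edgeR adjusted p = 2.59e-09). Glyma.08G021900 had 8.02, 9.33 and 8.01 CPM at NT and 33.6, 32 and 43.6 CPM at HT, a log2 fold change of 2.11. The groups were well apart in both, and both fell in TL1, by 2.53 and 2.64 on the log2 scale. The third, Glyma.19G254800, rose by 1.28 and was at -1.5 in TL1. The 5 *WRKY40* genes had log2 fold changes of 0.27 to 0.81 in *GmMYB21a-OE2*, none of them called, and were called lower in TL1, at -3.11 to -1.08. Of 8 zinc finger genes, 7 were higher and 1 was not called, with a median of 1.98. *ZAT10* and *ZAT11* encode stress-induced repressors. *ZAT11* (Glyma.13G133000) had 0.140, 0.115 and 0.349 CPM at NT and 1.93, 1.48 and 1.95 CPM at HT, a log2 fold change of 3.13, and another *ZAT11* gene, Glyma.03G173300, had 1.43, 1.29 and 0.990 CPM at NT and 6.97, 6.92 and 5.56 CPM at HT. The latter rose by 2.39 on the log2 scale and fell in TL1 (-2.01). In the *ZAT10* genes Glyma.04G044900, Glyma.17G236200 and Glyma.20G133200 the log2 fold changes were 1.66, 2.12 and 1.84, and HT replicate 3 was the highest library in each.

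U-box ubiquitin ligases, which mark proteins for breakdown and in *Arabidopsis* damp immune and drought signals, were higher in 12 of 14 genes and not called in 2, with a median log2 fold change of 1.55. The summed level rose from between 47.3 and 54.4 CPM to between 158 and 169 CPM. *U-box domain-containing protein 21* (Glyma.18G042100) had 4.0, 4.08 and 4.43 CPM at NT and 28, 25 and 27 CPM at HT, a log2 fold change of 2.68 (SE 0.10, edgeR adjusted p = 1.05e-10). Its TL1 value was -1.04, a fall. *PUB22* (Glyma.10G262600) was near the limit of detection at NT, with 0.140, 0.115 and 0.146 CPM at NT and 1.37, 0.882 and 1.23 CPM at HT, a log2 fold change of 3.09. For 2 of the 12 genes that rose, Glyma.02G034200 and Glyma.02G242900 on chromosome 2, the values may hold the offset of that chromosome. In 6 of the 14 genes a rise in *GmMYB21a-OE2* stood beside a fall in TL1, each called in its own line. Such calls were made in 45 of the 578 annotated rows and in 80 of all genes. The annotated rows were chosen for a difference between the lines at HT, so the 6 are not independent of that choice. *U-box domain-containing protein 4* (Glyma.01G165900) was not called without HT replicate 3.

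The list of heat stress genes holds 5 genes only and says little of the heat shock response as a whole. Of these, 3 were higher, none was lower and 2 were not called, with a median log2 fold change of 1.09. The chaperone *dnaJ 20* of the chloroplast was represented by a pair of genes that rose alike. Glyma.08G074200 had 3.38, 3.01 and 2.39 CPM at NT and 9.89, 10.2 and 8.86 CPM at HT, a log2 fold change of 1.72 (SE 0.15, edgeR adjusted p = 2.32e-07), against 0.02 in TL1. Glyma.05G119200 had 1.73, 2.18 and 1.66 CPM at NT and 6.94, 5.03 and 6.35 CPM at HT, a log2 fold change of 1.72, against -1.96 in TL1. *FKBP62* (Glyma.08G168700), a peptidyl-prolyl isomerase that works with heat shock protein chaperones, went from 8.5, 8.15 and 7.54 CPM to 17.3, 17.1 and 17.1 CPM. Its groups were apart and the log2 fold change was 1.09. Heat stress transcription factors C-1 (Glyma.07G086400) and B-4 (Glyma.14G083700) were not called, at 0.82 and -0.33.

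**Figure D4:**
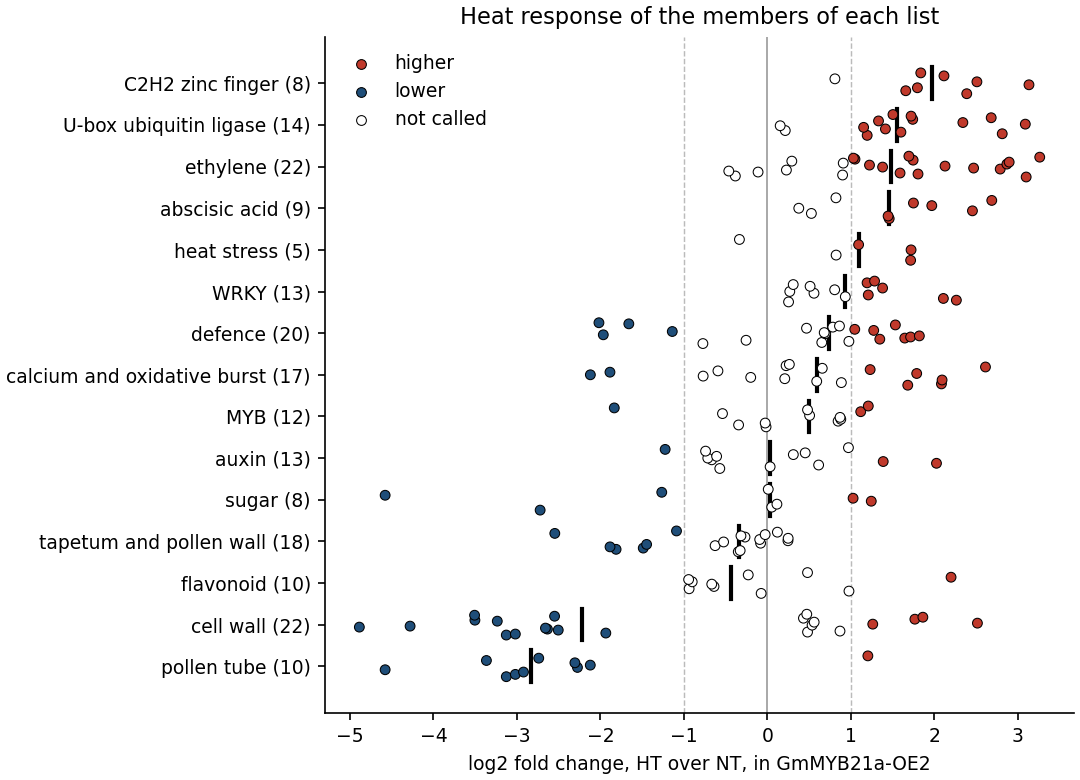
Log2 fold change of HT over NT in *GmMYB21a-OE2* (horizontal axis) for the members of the 15 lists (vertical axis, with the number tested); each point is a gene, coloured by its call (higher, lower or not called), and the black bar is the median of the list. The medians run from -2.83 for the pollen tube list to 1.98 for the zinc finger list, and dashed lines mark the fold threshold of 1.

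Calcium signalling and defence genes changed in both directions. Of 17 genes of calcium and the oxidative burst, 6 were higher, 2 lower and 9 not called, with a median log2 fold change of 0.59. *Calmodulin-binding protein 25*, described in *Arabidopsis* as a regulator of osmotic stress responses, rose in both genes. Glyma.19G125300 had 15.8, 19.4 and 21.2 CPM at NT and 102, 104 and 138 CPM at HT, a log2 fold change of 2.61 (SE 0.13, edgeR adjusted p = 9.62e-10). Glyma.03G120700 rose by 2.09 on the same scale, and HT replicate 3 was the highest library in both. *CBL-interacting protein kinase 5* (Glyma.13G228500), of a family of calcium sensor partners, had 5.42, 5.74 and 5.44 CPM at NT and 1.06, 1.31 and 1.43 CPM at HT and a log2 fold change of -2.12. Respiratory burst oxidases, which make superoxide at the plasma membrane, were not called in any of 3 genes. Of 20 defence genes, 7 were higher, 4 lower and 9 not called, with a median of 0.74. *NDR1/HIN1-like protein 10* (Glyma.03G201550) had 2.99, 3.39 and 2.68 CPM at NT and 10.8, 10.3 and 10.8 CPM at HT, a log2 fold change of 1.82. The other 2 genes of that name rose by 1.65 (Glyma.03G201000) and 1.72 (Glyma.03G201302), and the identifiers of all 3 lie near each other. *Pathogenesis-related protein 5* (Glyma.14G077333), a thaumatin-like protein, had 97.2, 113 and 117 CPM at NT and 34.4, 34 and 35 CPM at HT, a clear fall with a log2 fold change of -1.66. *ENHANCED DISEASE RESISTANCE 2* (Glyma.20G028400), a negative regulator of cell death in *Arabidopsis*, fell by 2.02 on the log2 scale. Without HT replicate 3, 5 defence genes were called higher, and the 2 no longer called were thaumatin-like 1a genes (Glyma.10G060800, Glyma.10G061000).

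The auxin and sugar lists had medians near that of all genes. Of 13 auxin-induced genes, 2 were higher, 1 lower and 10 not called, with a median of 0.03 on the log2 scale. *Auxin-induced protein 10A5* (Glyma.04G006800), of the family of small auxin-up RNAs, had 0.503, 0.287 and 0.146 CPM at NT and 2.01, 1.29 and 0.563 CPM at HT and a log2 fold change of 2.03. Its HT libraries were spread more than 3-fold. *Auxin-induced protein 6B* (Glyma.12G035300) had 1.45, 1.26 and 1.51 CPM at NT and 0.449, 0.954 and 0.384 CPM at HT, a log2 fold change of -1.22 that was -0.99 and not called without HT replicate 3. Of 9 sugar genes, 8 were tested, 2 were higher, 3 lower and 3 not called. The insoluble *Beta-fructofuranosidase* isoenzyme 1 (Glyma.03G197400), a cell wall invertase that splits sucrose, had 3.41, 3.21 and 3.26 CPM at NT and 0.343, 0.477 and 0.666 CPM at HT and a log2 fold change of -2.72. *SWEET15* (Glyma.08G183500), a sucrose exporter, had overlapping groups and a log2 fold change of 0.11, against -1.45 in TL1. The 2 members that rose were UDP-glycosyltransferases, which attach sugars to small molecules and do not transport them, *UGT43* (Glyma.09G082900) by 1.24 and *UGT88A1* (Glyma.09G128400) by 1.03 on the log2 scale. Of 12 *MYB* genes, *GmMYB21a* was the 1 that fell, 2 were higher and 9 were not called. *MYB63* (Glyma.20G047400), a regulator of lignin genes in *Arabidopsis*, had 0.699, 0.832 and 0.641 CPM at NT and 1.69, 1.6 and 1.74 CPM at HT, a log2 fold change of 1.21 and 1.06 in TL1. *MYB26* (Glyma.15G025500), which in *Arabidopsis* thickens the walls that open the anther, had 1.15, 0.717 and 0.437 CPM at NT and 1.37, 1.65 and 2.0 CPM at HT. Its log2 fold change of 1.12 was not called without HT replicate 3.

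Some of the largest changes of described genes lay outside these lists. The *Translocator protein homolog* (Glyma.03G213300), a membrane protein that binds porphyrins, had 0.419, 0.517 and 0.437 CPM at NT and 5.83, 5.7 and 5.89 CPM at HT, a log2 fold change of 3.66 (SE 0.20, edgeR adjusted p = 2.74e-09), against 2.23 in TL1. *EZ3* (Glyma.11G067000), annotated as a histone methyltransferase of the Polycomb type, had at most 3 counts in each NT library. At 1.37, 1.67 and 1.25 CPM at HT it was at least 16.7-fold higher, against a floor of 3 counts per library. *Mannan endo-1,4-beta-mannosidase 5* (Glyma.09G224500), which cuts mannan in walls, had 0, 0 and 0.204 CPM at NT and 1.5, 1.1 and 0.871 CPM at HT. The receptor-like protein gene *EIX2* (Glyma.16G185200) had 0.531, 0.430 and 0.641 CPM at NT and 0 counts in all HT libraries, at least 7.04-fold lower. In TL1 the same gene rose, with 0.619, 0.571 and 0 CPM at NT and 1.79, 1.67 and 1.67 CPM at HT. A germin-like protein gene (Glyma.19G102700), of a family of extracellular metal-binding enzymes, had 23.4, 24.6 and 28 CPM at NT and 0.897, 0.453 and 1.02 CPM at HT, a log2 fold change of -5.0. *Isoleucine N-monooxygenase 2* (Glyma.11G197300), of a family that starts cyanogenic glucoside synthesis in *Lotus*, had 13.6, 13.2 and 13.4 CPM at NT and 1.11, 0.954 and 0.563 CPM at HT and a log2 fold change of -3.93. TL1 went from 6.92 ± 0.840 CPM (SD, n = 3) to at most 3 counts in each HT library. *Peroxidase 37* (Glyma.01G027000) and an *L-ascorbate oxidase homolog* (Glyma.11G256700) fell by 3.73 and 3.57 on the log2 scale.

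Much of the heat response was shared with TL1, in which 9635 of 41422 genes (23.3%) were DEGs, 3543 higher and 6092 lower. Of the genes higher in *GmMYB21a-OE2*, 2507 were also higher in TL1 (56.6% of the former and 70.8% of the latter). Of the genes lower in *GmMYB21a-OE2*, 4445 were also lower in TL1 (74.7% and 73.0%). Opposite calls were few. Higher in *GmMYB21a-OE2* and lower in TL1 were 80 genes, and lower in *GmMYB21a-OE2* and higher in TL1 were 6. The interaction passed in all 80 and all 6, which opposite calls in the same libraries made nearly certain, so it is no separate support. Of the 80 genes, 45 are among the annotated rows, which were chosen for a difference at HT. The 2 heat responses had a correlation of 0.851 across 40950 genes, which are not independent replicates.

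The interaction of line and temperature in edgeR passed at an adjusted p-value below 0.05 in 5317 of 42839 genes (12.4%), of which 1329 had an absolute value of at least 1 on the log2 scale. It was positive, a stronger rise or a smaller fall in *GmMYB21a-OE2*, in 2358 genes (5.5% of those tested) and negative in 2959 (6.91%), so that 44.3% of them were positive. This split was not stable, and no direction is read from it. It was 44.1% positive with RLE size factors and 42.5% with DESeq2. Without the filter on low counts 55.1% of 4373 genes were positive. With chromosome 2 genes normalized among themselves 53.1% of 4605 were positive, and without the genes of chromosome 2 53.8% of 4274 were. On chromosome 2 itself, 12.1% of the genes tested were positive and 2.21% negative, against 4.01% to 6.64% and 5.44% to 9.7% on the other chromosomes. Without HT replicate 3 of *GmMYB21a-OE2*, 6768 genes passed. Of 1651 genes higher in *GmMYB21a-OE2* and tested but not called in TL1, 545 passed the interaction, and of 1376 lower ones 443 did. For most genes called in *GmMYB21a-OE2* and not in TL1, a difference between the lines was thus not shown.

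**Figure D5:**
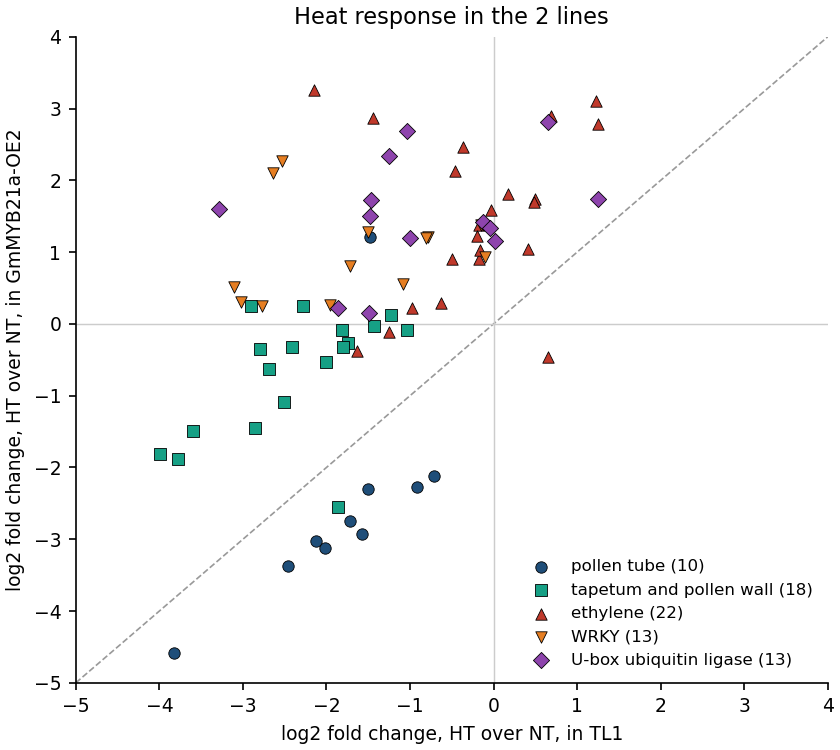
Log2 fold change of HT over NT in *GmMYB21a-OE2* (vertical axis) against that in TL1 (horizontal axis) for the genes of 5 lists tested in both lines; each point is a gene and the dashed line marks equal responses. Of the pollen tube genes, 9 of 10 lie below the line, and all members of the *WRKY* and U-box lists lie above it. The listed genes had been chosen for a difference between the lines at HT, so their side of the line is not independent of that choice.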

How the data were processed

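The authors deposited 1 table of whole-number read counts per gene, not normalized, for 53808 genes, 936 of them new genes of their own. The submitters' processing notes name StringTie 2.1.3b. Genome build, aligner, counter and strand setting are not given in the sources used here, so overlapping, antisense and near-identical genes can share reads. No column of another series was present.

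The 6 *GmMYB21a-OE2* libraries were fitted by edgeR 4.0.16 (R 4.3.3) with glmQLFit and glmQLFTest, TMM scaling and filterByExpr at its defaults, with Benjamini-Hochberg adjustment over 41717 genes. DEGs passed both an adjusted p-value of 0.05 and a change of 1 log2 unit. The methods name no count test. TL1 was fitted alike over its own 6 libraries, and the interaction over all 12. CPM used TMM library sizes over the 12 libraries. Standard errors are the log2 fold change divided by the root of the quasi-likelihood F. P-values set the difference between the groups against the spread between libraries, whose estimate is in part shared across genes. Fold bounds used a floor of 3 counts per library and cover counting error only.

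The members, lists and tests were chosen with earlier results of these data known. Named genes were *GmMYB21a* and, among called genes whose groups did not overlap, the 2 largest rises and falls over all genes with at least 4 counts in some library of each group, the 8 largest each way among annotated genes, and the largest rise and fall in each list. Other list members were named after their values were seen, and so were the 6 genes labelled by the study. The lists were matched on Swiss-Prot descriptions. The pattern for *NCED* was corrected after the files were read, since it also matched another word. The RefSeq table of Glycine_max_v4.0 (59048 genes) pairs 0 genes with Glyma identifiers, so promoters and proteins were not used here and fold changes and p-values of the study were not used.

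In simulated counts with 200 genes changed 4-fold, edgeR recovered 200 for the *GmMYB21a-OE2* comparison, with 2 false calls among 41675 genes, and 200 for the interaction, with 12 among 42254. DESeq2 1.42.0 recovered 200 and 199, with 0 and 24 false calls. In the simulation all genes had the same dispersion, the changed genes had a mean of at least 1 CPM, and rises and falls were equal in number. The data hold far more DEGs and a library that lies apart, so these rates do not carry over to them. Alternatives were RLE size factors, DESeq2, no filter, all 12 libraries in one fit, other thresholds, a block for the replicate number and the removal of each library in turn. After the data were seen, 2 were added, which normalized chromosome 2 genes among themselves or left them out. Figures were drawn with Python 3.11.15 and matplotlib 3.10.9.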

Additional observations from a re-analysis of the deposited data

Results flagged for a closer look

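Of the 37 genes named by the rule, 24 had a heat response that differed between *GmMYB21a-OE2* and TL1 in the interaction of edgeR's quasi-likelihood fit, at an adjusted p-value under 0.05. The same test passed in 463 of the 578 annotated rows and in 12.4% of all genes tested. All 24 come from the annotated rows, which were chosen for a difference between the lines at HT. The 2 largest rises and 2 largest falls over all genes lie outside those rows. None of them passed, with edgeR adjusted p-values of the interaction from 0.34 to 0.93. Values are the log2 fold change in *GmMYB21a-OE2* minus that in TL1.

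The difference was positive in 17 genes. It was 0.77 for *GmMYB21a* (Glyma.19G006500). Among transcription factors it was 5.42 for *ERF017* (Glyma.17G047300), 1.87 for *ERF061* (Glyma.01G225000), 4.38 for *DREB1D* (Glyma.09G147200) and 4.8 for *WRKY53* (Glyma.05G215900). Among hormone and signalling genes it was 1.38 for *NCED1* (Glyma.15G250100), 1.93 for *Calmodulin-binding protein 25* (Glyma.19G125300), 3.22 for *Auxin-induced protein 10A5* (Glyma.04G006800), 2.05 for *NDR1/HIN1-like protein 10* (Glyma.03G201550) and 3.19 for *PUB22* (Glyma.10G262600). The pollen tube kinase *ANXUR2* (Glyma.18G271500) had 2.69, and the chaperone *dnaJ 20* (Glyma.08G074200) had 1.71. Enzymes and transporters were *Isoleucine N-monooxygenase 2* (Glyma.11G197300) at 3.87, *Isoflavone 2'-hydroxylase* (Glyma.09G048700) at 2.65, xyloglucan endotransglucosylase/hydrolase 23 (Glyma.13G095100) at 2.97, *UDP-glycosyltransferase 43* (Glyma.09G082900) at 1.13 and the *Translocator protein homolog* (Glyma.03G213300) at 1.43.

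The difference was negative in 7 genes. *EIX2* (Glyma.16G185200) had a fitted value of -9.36, which depends on the prior count because the gene had 0 counts in the HT libraries of *GmMYB21a-OE2*. *Expansin-like B1* (Glyma.05G065700) had -4.47, *Auxin-induced protein 6B* (Glyma.12G035300) -2.24, and pectinesterase 21 (Glyma.10G009000) -1.8. The germin-like gene Glyma.19G102700 had -1.32, *Peroxidase 37* (Glyma.01G027000) -1.16, and *CBL-interacting protein kinase 5* (Glyma.13G228500) -0.90.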

How the results depend on the processing

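The number of DEGs (10376) lay between 10259 and 10666 when each of the 6 libraries was left out in turn, with 4222 to 4518 higher and 5898 to 6272 lower. It was 10383 with RLE size factors, 10547 with DESeq2, 10927 with no filter on low counts and 10718 with all 12 libraries in one fit. With no fold threshold it moved to 27976, with 14003 higher and 13973 lower. Of the 198 genes in lists, 106 to 113 were called when a library was left out. The log2 fold change of *GmMYB21a* stayed between -1.87 and -1.79. The DEGs of TL1, 9635 with all its libraries, numbered 9693 to 9889 when each of its libraries was left out in turn. The interaction passed in 3557 genes without NT replicate 1 of TL1 and in 6768 without HT replicate 3 of *GmMYB21a-OE2*, where the share of positive values was 56.7% and 39.3%, and in 1329 at an absolute log2 value of at least 1. For the 36 other named genes, 465 of 467 values kept direction and call, and none changed sign. The 2 that lost the call were *ANXUR2* (Glyma.18G271500) without NT replicate 3 and *Auxin-induced protein 6B* (Glyma.12G035300) without HT replicate 3. Without NT replicate 2 of *GmMYB21a-OE2* that share was 58.2%. Normalizing chromosome 2 genes among themselves, chosen after seeing the data, gave 10349 DEGs.

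Samples of the same number correlated at 0.189, -0.074 and 0.237 in their deviations from the group means, and no label ties the numbers together, so they were not treated as pairs. With the replicate number as a block, 10410 genes were called, and 4751 for the interaction. Pairing left every named gene's call as it was.

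Depth limits genes such as *DREB1D* and *PUB22*, with few reads at NT. The 3 libraries per group limit all tests, and the descriptions cover only genes that differ between the lines at HT.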

Other observations

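New genes of the authors rose at HT more often than they fell. Of 761 tested in *GmMYB21a-OE2*, 247 (32.5%) were higher and 37 (4.86%) lower, against 10.6% and 14.3% of all genes tested. In TL1, 230 (30.4%) of 757 were higher and 54 (7.13%) lower. How these gene models were chosen is not given in the sources used here.

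The lower median of chromosome 2 in the NT libraries of *GmMYB21a-OE2* was also seen against TL1 at the same temperature, with a difference of -0.155 log2 units, whereas the other 19 chromosomes lay between -0.0021 and 0.039. At HT the lines differed by 0.0045 on chromosome 2. In exact two-sided permutation tests of 3 against 3 libraries, the p-values were 0.10, the smallest possible, and 0.70. The pattern was seen first and measured afterwards, and no label ties the libraries of this group to particular plants.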
